A study of Mus musculus with 18 samples.

Results

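Quercetin was examined within the Western-style diet, in livers of mice fed that diet with the flavonol against livers of mice fed the diet alone. The members are the arrays whose titles name those diets, 12 of the 18 arrays in the series, with 6 mice on each side. All mice were male C57BL/6J, bought when 5 weeks old, and had been fed their diets for 20 weeks. The Western-style diet took 39.9% of its energy from fat and 34.0% from sucrose, and contained 20% butter, 1% soy oil and 0.15% cholesterol. The quercetin group received the same diet with 0.05% quercetin. Another 6 arrays, from mice on the purified diet AIN93G, show the level of each gene without the Western-style diet. They also entered the normalization, the filter on dim genes and the estimate of spread behind the quercetin intervals and p-values. Each array carried the total RNA of 1 liver, converted to biotin-labelled cRNA and hybridised to an Affymetrix mouse array. The mice were kept 3 to a cage, and which mice shared a cage is not given. The mouse was therefore taken as the unit of replication. No interval or p below takes account of shared cages, so they may be too narrow or too small. According to the series title, the study addressed whether long-term quercetin intake lessens the hepatic fat that builds up on such a diet.

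Quercetin is a plant flavonol that is taken up in the gut and conjugated with glucuronic acid, sulfate and methyl groups in the gut wall and liver. It is known as a radical scavenger and as a ligand or modulator of several sensor pathways, among them the aryl hydrocarbon receptor and the antioxidant regulator NRF2. A liver on a diet rich in fat and cholesterol stores triglyceride in droplets coated by perilipin and CIDE proteins, lowers its own sterol synthesis through the SREBP system, and over time gains macrophages and collagen-producing stellate cells.

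Every level of a gene given below is log2(intensity + 16) after quantile normalization. Every difference is the mean of the quercetin group minus the mean of the Western group on that scale. Folds given below are of intensity + 16, so for dim genes they are smaller than folds of the intensity itself. The sign ± after a difference gives the distance from it to either end of its 95% interval from limma, a linear model with a moderated variance. The interval of a difference is used as its bound below, since a p over the threshold does not show that 2 groups had the same level. A gene was called changed where its p, adjusted over all genes by the Benjamini-Hochberg method, was under 0.05. The arrays of the 2 groups were alike in brightness, with trimmed means of the deposited intensities of 91.3 ± 8.51 and 91.2 ± 5.17 (SD, n = 6 each, exact permutation p = 0.994). The log2 ratio of 3' to 5' actin signal, a measure of RNA integrity, was 0.54 ± 0.11 in the Western group and 0.55 ± 0.08 in the quercetin group (SD, n = 6 each; exact permutation p = 0.868). Over all 5 array measures compared, the smallest unadjusted exact permutation p was 0.541 (0.994 after Benjamini-Hochberg adjustment over the 5). The 18S control signal, as log2 of the deposited intensity, was 8.32 on quercetin array 3, where the other quercetin arrays lay at or below 6.31. The tissue label was borne out by the hepatocyte marker Alb, which encodes albumin and had a level between 12.96 and 13.18 on all 12 arrays. Between the groups, 9 measured hepatocyte markers had a median difference of −0.0063, which does not bear on the label.

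No gene passed the threshold. Of 13645 genes tested by limma, 0 were called higher (0%) and 0 lower (0%), and the smallest adjusted p was 0.9999. At an unadjusted p under 0.05 there were 392 genes (2.87%), fewer than the 682.25 that would be met with no difference at all; 199 were higher (1.46%) and 193 lower (1.41%). On the values as deposited, without normalization, the split was 204 higher and 113 lower. The unadjusted count was 629 without quercetin array 2 and 673 with arrays weighted by their quality. Differences were below 0 for 52.3% of genes, and the median difference was −0.0053. The groups did not overlap, every mouse of one group above every mouse of the other, for 18 genes (0.132%). At least 1.5-fold differences were found for 10 genes (0.0733%) and 2-fold differences for 0.

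The intervals show which sizes of difference these 12 arrays leave room for, if the mice are taken as independent. That distance had a median of 0.23, a 1.18-fold difference to either side. For 12836 genes (94.1%) the whole interval lay inside a 1.5-fold difference, and for 13592 (99.6%) it lay inside a 2-fold difference. The interval reached past 2-fold for 53 genes. The Western-style diet itself, measured against the control diet in the same fit with 5 control samples, gave 749 genes called higher (5.49%) and 431 called lower (3.16%). Without normalization those counts were 3640 and 84, and with array medians centred they were 1109 and 176; the median diet difference of all genes was −0.01, 0.22 and 0.07 under these 3 scalings. The total of 1180 was 748 without Western array 4 and 784 without Western array 5, and it was 223 with the actin ratio as a covariate. Both comparisons use the same 6 Western arrays. Of the 1180 genes called for the diet, 1079 had a quercetin interval inside 1.5-fold and 1173 had one inside 2-fold.

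**Figure D1:**
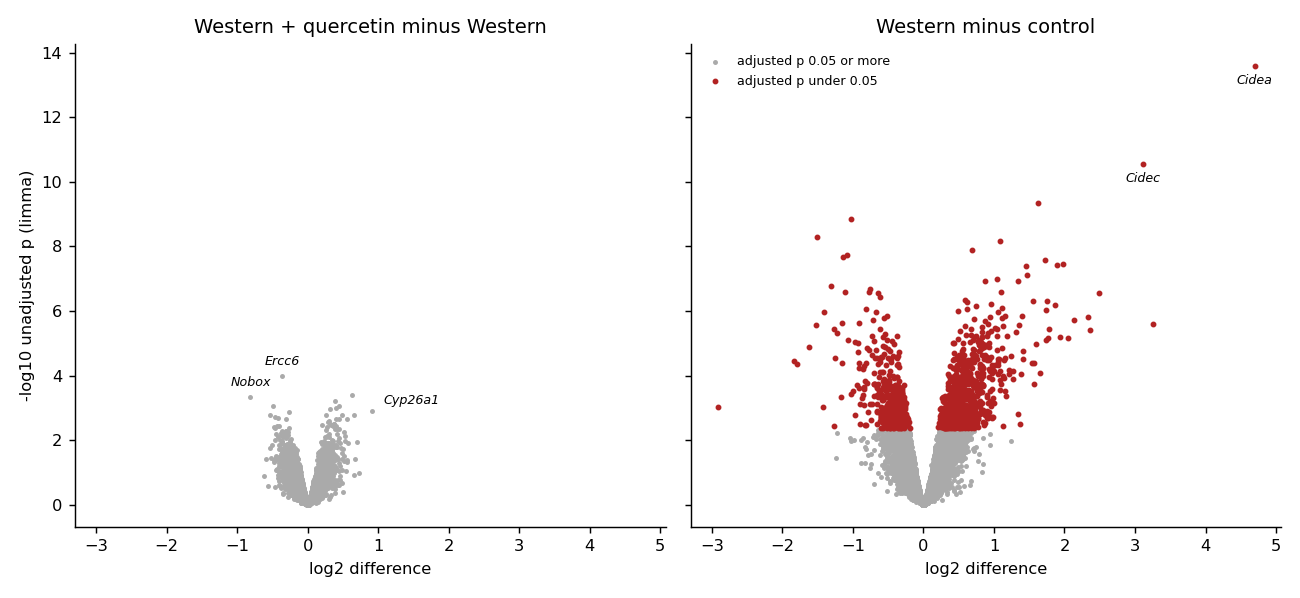
Each point is 1 of the 13645 genes, with its log2 difference on the horizontal axis and −log10 of the unadjusted limma p on the vertical axis, on the same scales in both panels. The quercetin comparison on the left holds 0 genes with an adjusted p under 0.05 (red) and lies between −0.81 and 0.91, while the diet comparison on the right holds 1180.

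The largest difference was that of Cyp26a1, which encodes the hydroxylase that inactivates retinoic acid and is itself induced by retinoic acid. Its levels ran from 5.08 over a median of 5.65 to 6.04 in the Western group and from 6.06 over a median of 6.22 to 7.30 in the quercetin group. All 6 quercetin mice lay above all 6 Western mice, narrowly so for 4 of them, while quercetin arrays 3 and 6 stood clearly higher at 7.27 and 7.30. The difference was 0.91 ± 0.50, a 1.88-fold higher level with an interval from 1.33 to 2.66 (unadjusted p = 0.00123, adjusted p = 0.9999). On the control diet the levels had been 5.34 to 6.15, inside the range spanned by both Western groups. Like every value here it comes from whole liver, in which fewer cells of a type and less RNA per cell cannot be told apart.

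The start region of Cyp26a1 is shown because letters matching a retinoic acid element lie close to the transcription start. The 250 bases before the RefSeq start (GRCm38.p6, chr19:37697558-37697807, plus strand) are printed 5′ to 3′, with capitals for a match to the retinoic acid direct repeat, GTTCA, any 6 bases and GTTCA again, on the minus strand.
Cyp26a1: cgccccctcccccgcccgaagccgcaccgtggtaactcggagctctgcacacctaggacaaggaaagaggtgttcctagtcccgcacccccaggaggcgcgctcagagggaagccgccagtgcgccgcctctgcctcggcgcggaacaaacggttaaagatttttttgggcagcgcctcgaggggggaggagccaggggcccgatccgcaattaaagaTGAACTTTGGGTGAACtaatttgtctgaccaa
The match begins 32 bases before the start. Searched on both strands in 32851 RefSeq promoter windows, each from 250 bases before to 50 after a start, this motif was present in 0.0761%. The motif was chosen after the values of Cyp26a1 had been seen, and a match is a description of the sequence.

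Among the 15 genes per direction with the smallest unadjusted p, most were dim. The median level of all genes tested was 6.52 over the 12 arrays, and 26 of these 30 genes lay below it. Zbtb8b, a zinc finger gene, had levels of 4.10 to 4.63 in the Western group and 4.51 to 5.29 in the quercetin group, where Western mouse 1 lay above quercetin mouse 6 (0.63 ± 0.31, unadjusted p = 0.000409). Kctd7, which encodes a potassium channel tetramerisation domain protein, stood at 5.89 to 6.58 against 6.61 to 6.98, with no overlap (0.45 ± 0.24). Cul5, a scaffold of ubiquitin ligases, likewise did not overlap, with 6.28 to 6.57 against 6.59 to 7.02 (0.31 ± 0.17). Also on the higher side were Plekhg4 (0.38 ± 0.20) and Lrrc19 (0.65 ± 0.37). Slc44a4, a choline transporter-like protein, had a difference of 0.55 ± 0.32.

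On the lower side the smallest p of all was that of Ercc6, the chromatin remodeller of transcription-coupled DNA repair. Its levels were 4.93 to 5.26 in the Western group and 4.59 to 4.85 in the quercetin group, without overlap, and the difference was −0.36 ± 0.15 (unadjusted p = 0.000104, adjusted p = 0.9999). Nobox, a homeobox gene known from oocytes, had the largest difference below 0, −0.81 ± 0.40, with 5.02 to 5.71 against 4.21 to 5.05. Il17ra, a receptor subunit for interleukin 17, was without overlap at 6.29 to 6.61 against 6.02 to 6.27 (−0.26 ± 0.17). Zfp775, another zinc finger gene, was also without overlap (−0.27 ± 0.15), and Slfn1, a Schlafen gene of lymphoid cells, differed by −0.48 ± 0.30.

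The gene lists were described by the number of measured members on each side of 0 and by their median, since no list was tested. No member of any of the 33 pathway lists or 12 cell type marker lists was called changed. The medians of the pathway lists lay between −0.17 for fibrosis and matrix genes and 0.10 for urea cycle and amino acid catabolism, against −0.0053 for all genes. Only genes above the dim threshold were tested, so counts are of tested members.

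**Figure D2:**
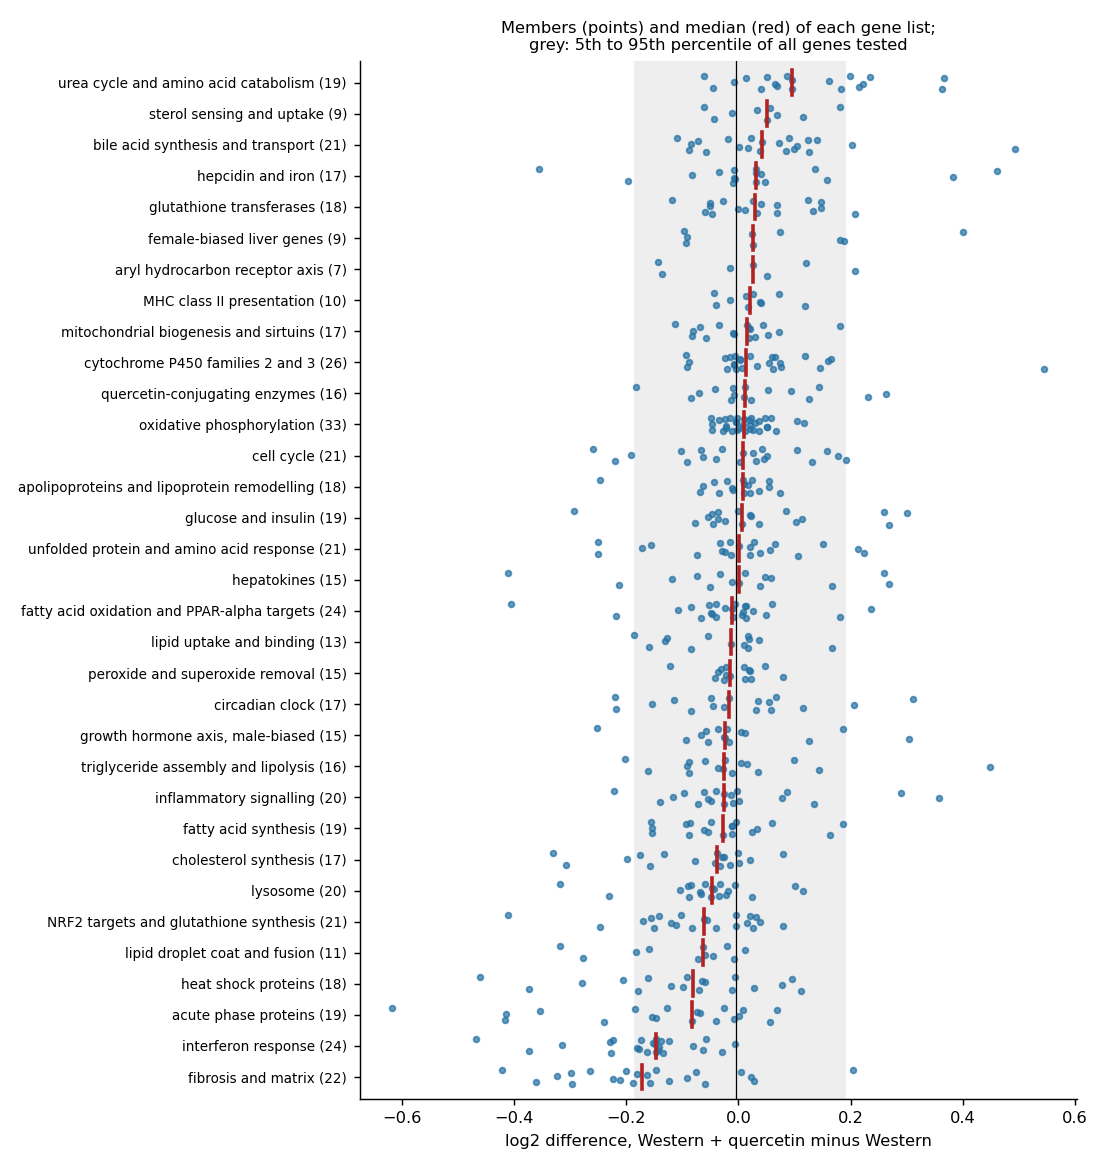
Each point is 1 member of a gene list, placed by its log2 difference between the quercetin and the Western group; red lines give list medians, the number of members tested stands in parentheses, and the grey band spans the 5th to 95th percentile of all genes tested. All 24 tested interferon response members lie below 0, and the list medians run from −0.17 to 0.10.

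Interferon response genes encode antiviral effectors and sensors that are induced together by interferons. Of 28 listed genes 24 were tested, and 24 of 24 had a difference below 0, where 52.3% of all genes did. The median was −0.15 and 4 members had an unadjusted p under 0.05, all lower, against 1.41% of all genes. Oasl2, an oligoadenylate synthetase-like protein, had the smallest p of the list. Its levels were 7.05, 6.39, 6.93, 6.99, 7.04 and 6.96 in Western mice 1 to 6 and 6.50, 6.81, 6.54, 6.29, 6.36 and 6.05 in quercetin mice 1 to 6. Western mouse 2 was the only one of its group within the quercetin range, and the control diet gave 5.83 to 6.21. The difference was −0.47 ± 0.27, a 1.38-fold lower level (unadjusted p = 0.0019, adjusted p = 0.9999).

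Ifit3, another interferon-induced gene, had levels of 6.95, 7.49 and 7.61 (lowest, median, highest) in the Western group. In the quercetin group they were 6.84, 7.09 and 7.27 (limma, −0.31 ± 0.25, unadjusted p = 0.0156). Mx1, a dynamin-like antiviral GTPase, had 5.19, 5.38 and 5.66 against 5.08, 5.20 and 5.38 (−0.23 ± 0.18, unadjusted p = 0.0181). Ifit1, a relative of Ifit3 named here after its values had been seen, had 6.29, 6.92 and 7.37 against 6.31, 6.48 and 6.57 (−0.37 ± 0.32, unadjusted p = 0.0259). In each of these 3 genes the groups overlapped, and all 6 quercetin mice lay below the Western mean. The antiviral gene Mx2 was on the array but too dim to be tested.

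Start regions of Ifit3 and Ifit1 are shown as examples of the element these genes share. They are the 250 bases before each RefSeq start (GRCm38.p6, plus strand), chr19:34583279-34583528 for Ifit3 and chr19:34640639-34640888 for Ifit1, 5′ to 3′, with capitals for matches to the interferon-stimulated element, GAAA, any 2 bases and GAAA again, here on the minus strand.
Ifit3: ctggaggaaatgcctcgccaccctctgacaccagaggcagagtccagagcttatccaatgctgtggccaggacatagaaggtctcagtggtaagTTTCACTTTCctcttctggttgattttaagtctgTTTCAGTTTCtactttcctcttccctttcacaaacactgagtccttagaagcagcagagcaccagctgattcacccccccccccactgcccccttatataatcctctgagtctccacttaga
Ifit1: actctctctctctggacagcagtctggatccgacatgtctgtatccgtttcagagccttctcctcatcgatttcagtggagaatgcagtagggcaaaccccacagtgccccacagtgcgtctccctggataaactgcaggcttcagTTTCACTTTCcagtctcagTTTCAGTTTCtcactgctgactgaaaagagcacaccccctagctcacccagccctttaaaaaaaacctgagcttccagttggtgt
Ifit3 holds 2 matches, which begin 156 and 122 bases before the start, and Ifit1 holds 2, at 104 and 85 bases. Among the 20 tested members of the list that have a promoter window, 11 (55.0%) held the motif. The same motif was found in 3.44% of the 32851 windows and in 3.75% of the 10981 tested genes with a window. The windows of Oasl2 and 8 further members held no match. Differences ran from −0.37 to −0.03 over the 11 members with a match and from −0.47 to −0.0061 over the 9 without.

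The interferon values are also given by array number. The labels number the mice 1 to 6 in each group and say nothing of what the numbers mean, but arrays numbered 1 to 3 and 4 to 6 stood apart in earlier results of these data, so values are also given within each set. In numbers 4 to 6, 24 of 24 members were below 0 with a median of −0.29, where 52.4% of all genes were below 0. In numbers 1 to 3, 14 of 24 members were below 0 with a median of −0.0048, where 49.8% of all genes were below 0. The difference between the sets was tested gene by gene as an interaction in limma; 6 of the 24 members had an unadjusted p under 0.05, against 5.02% of all genes, and 0 were called. Averaged over the list, Western arrays 1 to 6 stood at 0.11, −0.12, 0.02, 0.11, 0.13 and 0.26 relative to the mean of all 12, and quercetin arrays 1 to 6 at −0.01, 0.10, −0.06, −0.14, −0.16 and −0.24. With any single array left out, the list median stayed between −0.18 and −0.12, and at least 22 of 24 members were below 0.

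**Figure D3:**
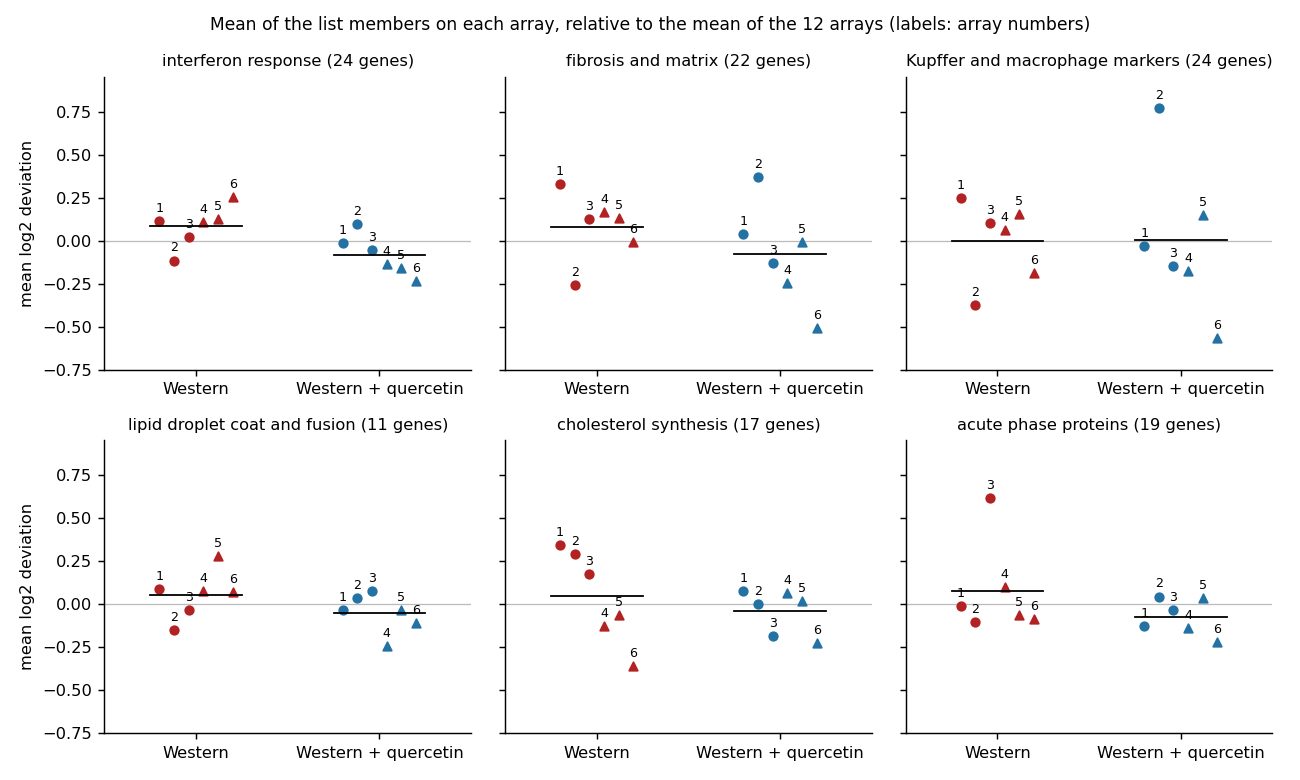
The vertical axis gives the mean log2 deviation of the members of 6 gene lists on each array from the mean of the 12 arrays, for the Western group (red) and the quercetin group (blue). Circles are arrays 1 to 3 and triangles arrays 4 to 6 of a group, each with its number, and black lines are group means; quercetin array 2 is highest at 0.77 and quercetin array 6 lowest at −0.56 in the macrophage panel.

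Lipid droplet genes, the part of the transcriptome closest to stored fat, held no called gene and lay mostly below 0 in numbers 4 to 6 but not in numbers 1 to 3. Of 11 members of the droplet coat and fusion list 10 were below 0, with a median of −0.06, and 0 had an unadjusted p under 0.05. In numbers 1 to 3, 5 of the 11 were below 0 (median 0.01), and in numbers 4 to 6, 10 were (median −0.19). Plin2, the main droplet coat protein of hepatocytes, had levels of 12.01, 12.22 and 12.42 in the Western group and 11.79, 12.03 and 12.35 in the quercetin group. The difference was −0.18 ± 0.21 (unadjusted p = 0.078), and the control diet gave 11.79 to 11.94. Quercetin mice 4 to 6 accounted for the low values: the difference was −0.39 in numbers 4 to 6 and 0.03 in numbers 1 to 3 (limma interaction, unadjusted p = 0.0257). Cidea, which makes droplets fuse and grow, had 9.83, 10.13 and 10.46 against 9.16, 9.86 and 10.61 (−0.32 ± 0.44, unadjusted p = 0.146; −0.18 without quercetin array 4). Its range on quercetin was wider and enclosed that of the Western group, and the control diet gave 5.05 to 6.26. G0s2, an inhibitor of the triglyceride lipase ATGL, differed by −0.28 ± 0.56.

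The other lists of lipid handling lay close to 0. Of 16 triglyceride assembly and lipolysis genes 10 were below 0 (median −0.03). Mogat2, a monoacylglycerol acyltransferase, differed by −0.20 ± 0.36, and Lpin2, a phosphatidate phosphatase, by 0.14 ± 0.26. Of 13 genes of lipid uptake and binding 7 were below 0 (median −0.01). There, Slc27a4, a fatty acid transport protein, differed by −0.13 ± 0.21, Angptl4, an inhibitor of lipoprotein lipase, by 0.17 ± 0.31, and Lrp1, a receptor for lipoprotein remnants, by −0.05 ± 0.16.

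Genes of sterol and fatty acid synthesis, both under control of SREBP factors, gave opposite values in the 2 sets of numbers. Of 17 cholesterol synthesis genes 14 were below 0 over all 12 arrays, with a median of −0.04. Mvk, mevalonate kinase, had levels of 5.89, 6.13 and 6.45 in the Western group and 5.61, 5.88 and 6.05 on quercetin (−0.33 ± 0.22, unadjusted p = 0.00584). Cyp51, the lanosterol demethylase, had 6.86, 7.54 and 7.79 against 6.70, 7.19 and 7.38 (−0.31 ± 0.35), and Fdft1, squalene synthase, differed by −0.18 ± 0.28. For Mvk the quercetin mice lay below the Western median in every case, and for all 3 genes the ranges overlapped. In numbers 1 to 3, 16 of the 17 genes were below 0 with a median of −0.29; in numbers 4 to 6, 4 of 17 were below 0 with a median of 0.18. The interaction had an unadjusted p under 0.05 for 7 of the 17, against 5.02% of all genes, and was called for 0. The split lay mainly in the Western group: averaged over the list and relative to the mean of all 12 arrays, Western mice 1 to 6 stood at 0.34, 0.29, 0.18, −0.13, −0.06 and −0.36, and quercetin mice 1 to 6 at 0.08, −0.0022, −0.19, 0.06, 0.02 and −0.23.

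Fatty acid synthesis was also read by number. Of 19 genes 14 were below 0 overall (median −0.03), 17 in numbers 1 to 3 (median −0.28) and 3 in numbers 4 to 6 (median 0.15), where 49.8% and 52.4% of all genes were below 0 in these sets. The interaction had an unadjusted p under 0.05 for 8, against 5.02% of all genes, and was called for 0. Me1, the cytosolic malic enzyme, differed by −0.16 ± 0.29, Acaca, acetyl-CoA carboxylase, by −0.15 ± 0.37, and Scd2, a desaturase, by 0.16 ± 0.59. Of 9 genes of sterol sensing and uptake 3 were below 0 (median 0.05). Insig1, which retains the SREBP complex in the endoplasmic reticulum, differed by 0.18 ± 0.27, and Nr1h3, the oxysterol receptor LXR-alpha, by 0.12 ± 0.15.

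Genes of fatty acid oxidation and PPAR-alpha targets had a median of −0.01, with 14 of 24 below 0. Ppara itself, the fasting and fatty acid sensor of the liver, was named outside the rule, after its values had been seen, because it is the regulator of the list; it differed by −0.02 ± 0.43, so that the interval ran from 0.733-fold to 1.32-fold. Pdk4, the kinase that closes pyruvate dehydrogenase, had 6.86, 7.51 and 7.73 against 6.52, 6.86 and 7.77 (−0.41 ± 0.51). Acot2, a mitochondrial thioesterase, differed by −0.22 ± 0.28 and Acaa1a, a peroxisomal thiolase, by 0.24 ± 0.30. Oxidative phosphorylation was the most narrowly measured list, with a median of 0.01 over 33 genes. The interval of each lay inside 1.5-fold, as it did for 94.1% of all genes. Of the 33, 24 were below 0 in numbers 1 to 3 and 9 in numbers 4 to 6. Of 17 genes of mitochondrial biogenesis and sirtuins 8 were below 0 (median 0.01), and Ppargc1a, a coactivator of mitochondrial genes, differed by 0.18 ± 0.27.

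Bile acid synthesis and transport genes were above 0 in 15 of 21 cases, with a median of 0.04. Cyp27a1, the sterol 27-hydroxylase, differed by 0.10 ± 0.18, and Abcb4, the phosphatidylcholine floppase of bile, by −0.11 ± 0.19. Cyp7a1, the rate-limiting enzyme of bile acid synthesis, varied widely between mice (0.49 ± 1.18; named after its values had been seen). Of 18 apolipoprotein and lipoprotein remodelling genes 10 were above 0 (median 0.0088).

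Among genes that answer to oxidants and foreign compounds, NRF2 targets were more often below than above 0. Of 21 tested genes of that list 15 were below 0, with a median of −0.06. In numbers 1 to 3, 11 of the 21 were below 0 (median −0.0028), and in numbers 4 to 6, 15 were (median −0.17). Osgin1, an oxidative stress-induced growth inhibitor, had levels of 8.66, 9.28 and 9.32 in the Western group and 8.45, 8.52 and 9.35 on quercetin (−0.41 ± 0.33, unadjusted p = 0.0188). Of the 6 quercetin mice 4 lay at the low end of the range, near the control diet levels of 8.29 to 8.66, and Western mouse 5 lay there too. Ces2g, a carboxylesterase, differed by −0.14 ± 0.18 and Aox1, an aldehyde oxidase, by −0.11 ± 0.18. Of 18 glutathione transferases 7 were below 0 (median 0.03), with 0.13 ± 0.16 for Gstz1. Of 15 genes for the removal of peroxide and superoxide 8 were below 0 (median −0.01), with 0.08 ± 0.13 for Cat, catalase.

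Genes of the aryl hydrocarbon receptor axis, the receptor among them, showed small differences (median 0.03, 3 of 7 tested below 0). Each of the 7 had its interval inside 1.5-fold, as did 94.1% of all genes. The targets Ahrr and Aldh3a1 were on the array but too dim to be tested. Cyp1a1, the classical target, had a level near background, 4.55, 4.71 and 4.94 in the Western group and 4.45, 4.95 and 5.21 in the quercetin group (0.21 ± 0.23, unadjusted p = 0.077). The receptor gene Ahr differed by 0.12 ± 0.25 and the target Tiparp by −0.14 ± 0.24. Of 26 P450 genes of families 2 and 3, 10 were below 0 (median 0.01), with 17 below 0 in numbers 1 to 3 and 5 in numbers 4 to 6. Cyp2b10, a target of the xenobiotic receptor CAR, had 4.83, 4.93 and 5.35 against 4.32, 5.54 and 6.57 (0.55 ± 0.64). The difference was −0.18 in numbers 1 to 3 and 1.27 in numbers 4 to 6. Its Western levels were near background, and the value in numbers 1 to 3 includes Western mouse 3, apart at 5.35 (next 4.985). Cyp2c70, an enzyme of muricholic acid synthesis, differed by 0.16 ± 0.26.

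Enzymes that conjugate quercetin, the UDP-glucuronosyltransferases, sulfotransferases and catechol methyltransferase, had a median of 0.01, with 7 of 16 below 0. Sult1a1, the phenol sulfotransferase, had 10.23, 10.88 and 11.04 in the Western group and 10.80, 11.10 and 11.33 on quercetin. The difference was 0.26 ± 0.25 (unadjusted p = 0.0425), and the low end of the Western range was Western mouse 3 alone, without which the difference was 0.15. Sult1d1, a sulfotransferase of catechols, differed by 0.23 ± 0.33.

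Matrix and inflammatory signalling genes, which mark progression beyond fat storage, held no called gene and spread widely between mice. Both lists lay mostly below 0 in numbers 4 to 6 but not in numbers 1 to 3. Of 22 fibrosis and matrix genes 18 were below 0, with a median of −0.17 and 0 at an unadjusted p under 0.05. Every interval of the list lay inside 2-fold, as it did for 99.6% of all genes. Col1a1, a chain of type I collagen, had 6.05, 6.95 and 7.18 against 5.37, 6.47 and 7.38 (−0.42 ± 0.55, unadjusted p = 0.122; −0.22 without quercetin array 6). The quercetin range enclosed that of the Western group, and the control diet gave 4.63 to 5.35. Timp2, an inhibitor of matrix proteases, differed by −0.20 ± 0.21 and Col6a3, of the microfibrillar collagen, by −0.30 ± 0.32. In numbers 4 to 6 the list had a median of −0.33 with 20 of 22 below 0, and in numbers 1 to 3 a median of 0.04 with 8 below 0.

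Markers of the cells that make and attract matrix are given beside these genes. Of 13 stellate cell and pericyte markers 9 were below 0 (median −0.12). Cygb, a globin of stellate cells, had 6.17, 6.31 and 6.55 against 5.80, 6.09 and 6.26 (limma, −0.27 ± 0.23, unadjusted p = 0.0264). Pdgfrb, their growth factor receptor, differed by −0.26 ± 0.27. Lrat, which esterifies retinol in stellate cells, went the other way at 0.21 ± 0.31. The stellate list had 5 of 13 below 0 in numbers 1 to 3 (median 0.08) and 10 in numbers 4 to 6 (median −0.19). Of 24 macrophage and Kupffer cell markers 15 were below 0 overall (median −0.05), while 4 were below 0 in numbers 1 to 3 (median 0.16) and 19 in numbers 4 to 6 (median −0.23). Averaged over the list, macrophage markers ranged from −0.38 to 0.25 across the Western arrays and from −0.56 to 0.77 across the quercetin arrays, and the fibrosis list from −0.26 to 0.33 and from −0.51 to 0.37. Quercetin array 2 was highest and quercetin array 6 lowest in both lists. Without these 2 arrays the medians were −0.20 for the fibrosis list and −0.10 for the macrophage list. The part that cell numbers have in the matrix values was not tested. The macrophage markers with the smallest p lay above 0, unlike 15 of the 24. Cd163, a scavenger receptor of resident macrophages, differed by 0.33 ± 0.43 (0.16 without quercetin array 6). Timd4, of resident Kupffer cells, differed by 0.32 ± 0.43 (0.15 without quercetin array 2 and 0.17 without Western array 1). Trem2, of lipid-associated macrophages, differed by 0.17 ± 0.27 and was dim, with means of 4.61 in the Western and 4.77 in the quercetin group.

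All 5 tested cholangiocyte markers were below 0 (median −0.23), in numbers 1 to 3 as in 4 to 6, at levels close to background. Cldn7, a tight junction protein of duct cells, differed by −0.23 ± 0.22 (unadjusted p = 0.0424). The median was 0.03 over 12 endothelial markers, −0.11 over 5 T and NK cell markers, −0.04 over 6 B cell markers and −0.17 over 7 neutrophil markers. The few erythroid, adipocyte, exocrine pancreas and skeletal muscle markers above the dim threshold numbered 2, 2, 3 and 3, with medians of 0.00031, 0.09, 0.09 and 0.09.

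Of 20 inflammatory signalling genes 14 were below 0 (median −0.03), although the 2 with the smallest p lay above it. In numbers 1 to 3, 3 of the 20 were below 0 (median 0.16), and in numbers 4 to 6, 17 were (median −0.16). Nfkb2, a subunit of NF-kappaB, had 5.08, 5.39 and 5.54 against 5.10, 5.77 and 6.17 (0.36 ± 0.31, unadjusted p = 0.0259), Nlrp3, an inflammasome sensor, differed by 0.29 ± 0.41, and Cxcl1, a neutrophil chemokine, by −0.22 ± 0.40. Of 19 acute phase genes 15 were below 0 (median −0.08). In numbers 1 to 3, 14 of the 19 were below 0 (median −0.10), and in numbers 4 to 6, 14 were (median −0.05). Saa2, a serum amyloid protein, had 10.00, 10.39 and 12.44 in the Western group and 9.44, 10.16 and 10.56 on quercetin (−0.62 ± 0.81), and the highest value was that of Western mouse 3 alone, without which the difference was −0.27. Itih4, an inter-alpha-trypsin inhibitor heavy chain, differed by −0.15 ± 0.19, and by −0.08 without the same mouse. MHC class II genes had a median of 0.02, with 3 of 10 below 0, and lysosomal genes a median of −0.05, with 17 of 20 below 0. MHC class II had 1 of 10 below 0 in numbers 1 to 3 (median 0.16) and 8 in numbers 4 to 6 (median −0.20), and the lysosomal list 8 of 20 (median 0.06) and 19 of 20 (median −0.14).

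Urea cycle and amino acid catabolism genes were above 0 in 16 of 19 cases, the highest median of the 33 lists at 0.10. Cps1, the entry enzyme of the urea cycle, had 12.06, 12.21 and 12.36 against 12.15, 12.38 and 12.54 (0.16 ± 0.17, unadjusted p = 0.0605). Got1, an aspartate aminotransferase, differed by 0.36 ± 0.40, and Tat, the tyrosine aminotransferase induced by glucocorticoids, by 0.37 ± 0.42. Both leaned on numbers 4 to 6, with 0.91 and 0.83 there and −0.18 and −0.10 in numbers 1 to 3. For Tat the value in numbers 1 to 3 includes Western mouse 3, which stood apart at 11.53 (next in its group 10.81). Over the list, 2 of 19 genes were below 0 in numbers 4 to 6 and 10 in numbers 1 to 3. The limma interaction had an unadjusted p under 0.05 for 4 of the 19, against 5.02% of all genes, and was called for 0.

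Glucose and insulin genes had a median of 0.0070, with 9 of 19 below 0. Pck1, of gluconeogenesis, had 10.71, 11.23 and 11.68 against 11.11, 11.54 and 11.91 (0.30 ± 0.33). Igfbp2, a growth factor binding protein, differed by 0.27 ± 0.29, and Irs2, the insulin receptor substrate, by −0.29 ± 0.43. Hepatokine genes had a median of 0.00083 (7 of 15 below 0), with Angptl8, induced by feeding and insulin, at −0.41 ± 0.63 (−0.23 without Western array 5, −0.19 without quercetin array 6). Male-biased growth hormone targets had a median of −0.02 (10 of 15 below 0) and female-biased genes one of 0.03 (3 of 9 below 0), with −0.16 in numbers 1 to 3 and 0.46 in numbers 4 to 6. Hepcidin and iron genes had a median of 0.03 (8 of 17 below 0), with Hamp, the iron hormone hepcidin, at 0.38 ± 0.80, a value that ran from 0.12 without Western array 2 to 0.71 without quercetin array 3.

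Stress and growth lists gave no called gene either. For the unfolded protein and amino acid response 10 of 21 genes were below 0 (median 0.0012). Sesn2, a stress-induced regulator of mTORC1, had 5.76, 6.00 and 6.30 against 6.04, 6.21 and 6.50 (0.22 ± 0.21, unadjusted p = 0.0385), and Atf4, the transcription factor of this response, differed by −0.25 ± 0.31. Heat shock genes were below 0 in 14 of 18 cases (median −0.08), with 16 below 0 in numbers 1 to 3 and 7 in numbers 4 to 6. Cell cycle genes had a median of 0.0089 (9 of 21 below 0, 7 in numbers 1 to 3 and 14 in numbers 4 to 6). Circadian clock genes had a median of −0.02 (9 of 17 below 0, and 9 in each set of numbers). The limma interaction with number set had an unadjusted p under 0.05 for 5 of the 17 clock genes. That was against 5.02% of all genes, and 0 were called.

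The genes that the diet moved most were then read in the quercetin comparison. None of the 10 largest diet rises or 10 largest diet falls had an unadjusted quercetin p under 0.05 in limma. Only 2.87% of all genes tested had one, so this count says little about these genes in particular. The diet difference is that of the Western against the control group, and since it shares the Western arrays with the quercetin difference, both are given side by side without any measure of their relation. Cidea differed by 4.70 for the diet and −0.32 for quercetin, and Cidec, its relative that enlarges droplets, by 3.11 and −0.05 ± 0.44. Ly6d, a small surface protein, had 3.26 and −0.35 ± 0.97, with quercetin mice from 6.88 to 10.20. Gpnmb, of lipid-laden macrophages, had 2.49 and −0.09 ± 0.63, and Mmp12, the macrophage elastase, 2.34 and −0.32 ± 0.67. Lcn2, a siderophore-binding protein, had 2.36 and −0.41 ± 0.73, the latter −0.13 without Western array 3.

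The remaining diet rises also had intervals that span 0. Cbr3, a carbonyl reductase, had a quercetin difference of −0.25 ± 0.62, Gstm3, a glutathione transferase, −0.12 ± 0.66, Adgrv1, an adhesion receptor, −0.08 ± 0.43, and Lpl, lipoprotein lipase, −0.19 ± 0.62. Among the diet falls, Hsd3b5, a male-biased steroid dehydrogenase, had −2.92 for the diet and 0.30 ± 1.49 for quercetin, the widest interval of the 20. Sqle, squalene epoxidase, had −1.84 and −0.16 ± 0.68, and Idi1, the isoprene isomerase, −1.52 and −0.00091 ± 0.45. Hamp2, a hepcidin gene, had −1.80 and 0.46 ± 0.67, and Etnppl, which breaks down phosphoethanolamine, −1.41 and 0.37 ± 0.39 (unadjusted p = 0.0644). Quercetin differences of the others were 0.15 ± 0.55 for Clec2h, a lectin, 0.13 ± 0.29 for Rdh16f2, a retinol dehydrogenase, −0.09 ± 0.73 for Slc22a7, an organic anion transporter, −0.10 ± 0.32 for Cela1, an elastase, and 0.06 ± 0.39 for Enho, which encodes adropin.

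**Figure D4:**
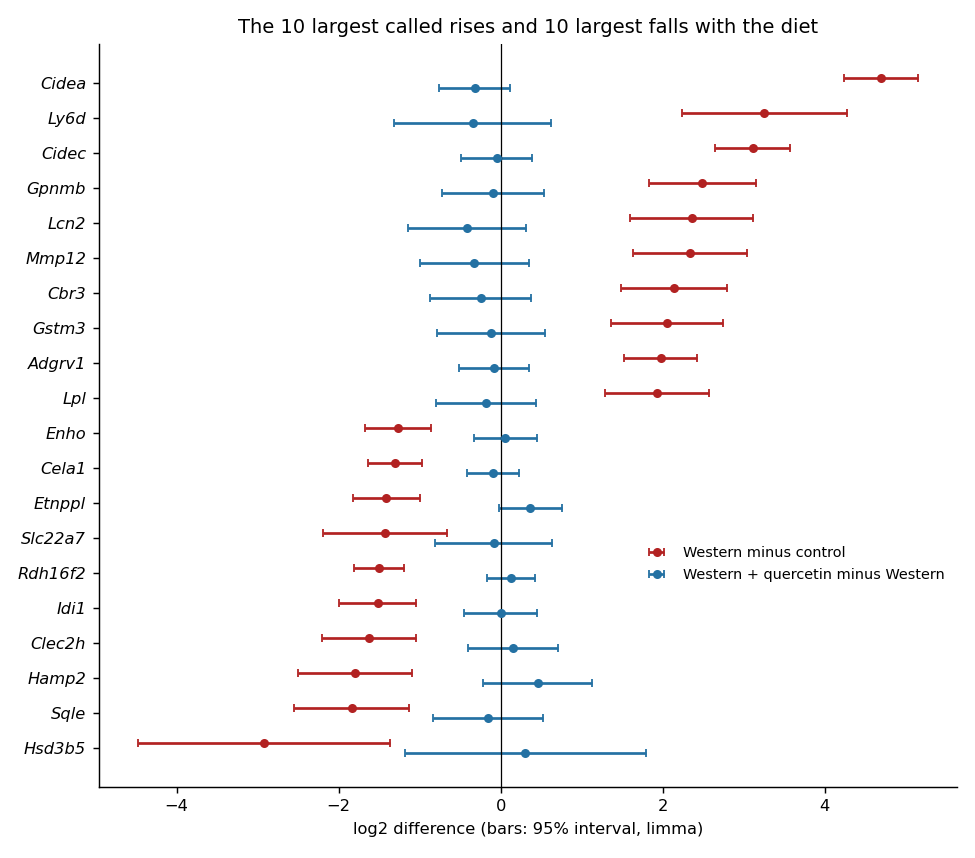
For the 10 largest called diet rises and the 10 largest called falls, the horizontal axis gives the log2 difference between Western and control livers (red) and between quercetin and Western livers (blue), with 95% intervals from limma. Every blue interval includes 0, and the red differences run from −2.92 to 4.70; both colours share the Western arrays.

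The last comparison asked whether the quercetin difference itself varied between arrays numbered 1 to 3 and 4 to 6. It was an interaction in limma over the 12 arrays. These sets were chosen because they stood apart in earlier results of these data. The interaction p-values below take no account of that choice. The interaction was called for 1 gene (0.00733%), Zbtb16, which encodes the zinc finger repressor PLZF, and 685 genes (5.02%) had an unadjusted p under 0.05. Zbtb16 had levels of 6.45, 6.62, 6.37, 6.42, 6.14 and 6.15 in Western mice 1 to 6, and of 5.90, 5.79, 5.26, 7.17, 7.36 and 7.38 in quercetin mice 1 to 6. Quercetin mice 1 to 3 thus lay below all Western mice and quercetin mice 4 to 6 above all of them, with differences of −0.83 and 1.07 (limma interaction, adjusted p = 0.0253); over all 6 the difference was 0.12 ± 0.67. Zbtb16 was named after its values had been seen. On the control diet Zbtb16 ranged from 6.62 to 7.77. This call was the single one, and no gene passed on the values as deposited, with a pseudocount of 1, with the mean of the probe sets of a gene, without quercetin arrays 2 and 6 together, or when any one of Western arrays 1, 3, 5 and 6 or quercetin arrays 2, 4 and 5 was left out.

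Lpin1, a phosphatidate phosphatase and coactivator of fat oxidation that is induced by fasting and glucocorticoids, came next. It had 9.08, 9.38, 9.24, 8.85, 8.85 and 8.06 in Western mice 1 to 6 and 8.33, 8.52, 8.57, 10.48, 10.51 and 9.73 in quercetin mice 1 to 6. The differences were −0.76 in numbers 1 to 3 and 1.66 in numbers 4 to 6, with a limma interaction p of 0.0616 after adjustment, and over all 6 mice 0.45 ± 0.78. Adgrv1 followed with 0.61 and −0.77 (limma interaction, adjusted p = 0.246). Whether mice with neighbouring numbers shared a cage, a day or a hybridisation is not given in the sources used here, so the part of those factors was not tested.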

How the data were processed

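The deposited table held 1 intensity per probe set and array on a linear scale, as the values show; how the authors summarised probes and scaled arrays is not given in the sources used here. Each intensity plus a pseudocount of 16 was put on the log2 scale, and the 18 arrays were quantile normalized. Of 45101 probe sets, 34945 carried 1 gene symbol in the platform annotation, 932 several and 9160 none; 64 were controls. Each of 18193 genes was read from its probe set of highest mean, and 4548 genes under the 25th percentile of mean level were left out. Control arrays 4 and 5 were near identical (SD of their difference 0.0461 log2 units, next smallest pair 0.152) and were averaged as 1 sample, leaving 17 samples.

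limma 3.58.1 in R 4.3.3 was fitted to the 3 groups with Benjamini-Hochberg adjustment over 13645 genes, and the scripts were tested on simulated data. Labels give 1 mouse per array, so p-values measure the spread between mice and take no account of shared cages. Array number limits precision. Array measures had exact permutation tests over 924 assignments, two-sided. Eligible to be named were the 15 genes per direction with the smallest p, the 3 members of each list with the smallest p and any past 1.5-fold, and the 10 largest diet changes per direction; the text gives a selection, and other genes are said to have been chosen after their values were seen, apart from the marker Alb. The members and lists were chosen with earlier results of these data known. Normalization, pseudocount, dim filter, probe set choice, samples, blocks, RNA integrity, array weights and single arrays were varied.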

Additional observations from a re-analysis of the deposited data

Results flagged for a closer look

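Of 196 groups of 6 levels, one for each gene singled out in each of the 2 Western groups, 15 (7.65%) held 1 array apart from the rest by Dixon's criterion for 6 samples (gap over range above 0.625), where chance gives about 1 in 20. Western array 3 accounted for 5 of them: it was highest for Saa2 at 12.44 (next 10.80), Itih4 at 12.68, Tat at 11.53 and Cyp2b10 at 5.35, and lowest for Sult1a1 at 10.23. Western array 2 was lowest for Oasl2 at 6.39, Gpnmb at 6.07 and Cyp26b1 at 4.34. Western array 5 was lowest for Osgin1 at 8.66 and highest for Angptl8 at 10.21, and Western array 6 was highest for Lrrc19 at 4.995. In the quercetin group, array 3 was highest for Plekhg4 at 5.085 and lowest for Hamp at 10.60, array 2 was highest for Timd4 at 7.11, and array 6 was highest for Slc22a7 at 8.45.

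The quercetin difference of Zbtb16 in arrays numbered 4 to 6 was 1.90 log2 units above that in arrays numbered 1 to 3. Its interaction in limma had an adjusted p of 0.0253. The sets were chosen from earlier results of these data, and this p takes no account of that choice. Each set of 3 quercetin mice lay outside the Western range on its own side.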

How the results depend on the processing

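Under all 30 other settings limma called 0 genes for quercetin, with 317 to 1068 genes at an unadjusted p under 0.05 and a smallest adjusted p of 0.09025, reached without quercetin array 5; with 1 array left out the unadjusted count was 335 to 629. The replicate block by number gave 0 calls and 501 genes at an unadjusted p under 0.05, and a block by number set gave 0 and 516. Same-numbered arrays deviated from their group means with correlations of −0.262 to 0.266, 5 of 6 over 0.1. Only 2 of 6 matched best with their own number, so the numbers were not taken as pairs. Between arrays of the same number set the median correlation was 0.0987, and between arrays of different sets −0.112. In limma, arrays 1 to 3 alone gave 387 genes at an unadjusted p under 0.05 and arrays 4 to 6 alone 1068. Of 77 genes singled out whose difference exceeded 1 standard error, 18 changed sign under some setting. In arrays 1 to 3 alone the values with a changed sign were 0.030 for Plin2, 0.018 for G0s2, −0.76 for Lpin1, −0.084 for Lpin2, −0.15 for Insig1, 0.10 for Abcb4, −0.18 for Cyp2b10, −0.12 for Sult1d1, 0.091 for Cxcl1, 0.082 for Col1a1, −0.064 for Cd163, −0.11 for Hamp2, −0.18 for Got1, −0.10 for Tat, 0.28 for Angptl8 and 0.13 for Mmp12; in arrays 4 to 6 alone they were 0.041 for Me1 and −0.041 for Cyp1a1. The diet count of 1180 was 3724 on the values as deposited, 223 with the actin ratio as a covariate, and 748 to 1394 with 1 Western or quercetin array left out. The count of genes called for the difference between number sets, 1 in the report, was 0 on the values as deposited, with a pseudocount of 1, with the mean of probe sets and without quercetin arrays 2 and 6, 2 with medians centred, a pseudocount of 64 or the stricter filter, 3 with trend and robust variance, and 0 to 1 with 1 array left out. The cause of these changes was not tested. Dim genes limit what can be read from the genes with the smallest p, and 6 arrays a side leave 53 genes with an interval past 2-fold.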

Other observations

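A list of 22 retinoid metabolism genes was drawn up after the value of Cyp26a1 had been seen, and 17 of them were tested. Of these, 8 were below 0 and the median was 0.02. Cyp26b1, a second retinoic acid hydroxylase, had a difference of 0.43 ± 0.40 (to either end of the 95% interval; limma, unadjusted p = 0.0368), which was 0.25 without Western array 2, the lowest of its group. Lrat, which esterifies retinol for storage in stellate cells, had a difference of 0.21 ± 0.31. Rbp4, the plasma carrier of retinol, had a difference of −0.05 ± 0.12.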
